A study of Mus musculus with 2 samples.

Results

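A Slide-tags library of mouse brain on embryonic day 14 (E14) held 7531 nucleus barcodes with at least 1500 UMIs. Of these, 399 (5.30%, 95% interval 4.8 to 5.83) met a rule built on marker transcripts of thalamic neurons. Meeting the rule does not make each a thalamic neuron, since only 226 (56.6%) fell into a cluster led by thalamic markers. A UMI, or unique molecular identifier, marks 1 captured RNA molecule. A nucleus was taken if it had at least 3 UMIs of Tcf7l2, at least 2 UMIs summed over Gbx2, Lhx9, Shox2 and Slc17a6, at most 1 UMI of Gad1 and Gad2 together, and under 5% mitochondrial UMIs. These 399 barcodes are called gated nuclei, and were 399 of 10698 barcodes in both libraries of the series. The E14 library came from a sagittal brain section of a C57BL/6J embryo, an inbred strain, snap-frozen as a whole. The comparison library came from the hippocampus of a C57BL/6J mouse aged 56 days. Neither animal is described as carrying an engineered allele or as treated. The E14 library held 9037 barcodes and 58924407 UMIs. In Slide-tags, the nuclei of a frozen section are labelled with spatial barcodes in place and then sequenced singly, so the values count nuclear RNA with its introns. The spatial barcodes were not used here. There was 1 library per tissue, so no difference was tested. Intervals are exact binomial intervals for shares and exact Poisson or conditional intervals for levels and their ratios, and cover counting error only.

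The thalamus relays sensory and motor signals to the cerebral cortex, and its relay neurons are glutamatergic. They arise in the caudal part of the embryonic diencephalon. Tcf7l2, a transcription factor that acts at the end of the Wnt pathway, is kept on in these neurons after they leave the cell cycle. Gbx2 and Lhx9 are homeodomain transcription factors of early thalamic neurons, Shox2 is a homeodomain factor found in subsets of them, and Slc17a6 encodes the vesicular glutamate transporter of most subcortical excitatory neurons. The Gad genes encode the enzymes that make GABA, the transmitter of inhibitory neurons of the neighbouring rostral thalamus and prethalamus. Rnf220, which encodes a ubiquitin ligase, was the 1 marker of the thalamus that the rule did not use.

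The genes of the rule lie far apart on build GRCm38. Tcf7l2 (ENSMUSG00000024985) spans chr19:55741820-55933654 on the plus strand. Gbx2 (ENSMUSG00000034486) spans chr1:89927956-89931179, Lhx9 (ENSMUSG00000019230) chr1:138825186-138848577 and Shox2 (ENSMUSG00000027833) chr3:66971727-66981771, each on the minus strand, and Slc17a6 (ENSMUSG00000030500) spans chr7:51622006-51671119 on the plus strand. Rnf220 (ENSMUSG00000028677) spans chr4:117271463-117497052 on the minus strand, and an antisense transcript, Gm12828, lies within it at chr4:117445950-117455040. Shox2 overlaps Rsrc1, a protein-coding gene on the opposite strand. Whether counting kept the strands apart is not given in the sources used here, so values of genes with an opposite partner are uncertain by that much.

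The 250 bases before the start site are shown for 4 genes that the results turn on and whose window holds no annotated exon. Capitals mark the core letters that TCF and LEF proteins bind, CTTTGA or TCAAAG, searched on both strands. Rnf220 led the genes outside the rule in nuclei under 10000 UMIs, Pdzrn4 was among the leading genes of the shallower nuclei and 1 of the 2 genes of that list with the core letters, Shox2 belonged to the rule, and Col25a1 was the leading gene of the nuclei with Shox2. The sequences are from RefSeq on GRCm38.p6. They are chr4:117375462-117375711 (minus strand, inside the longer Rnf220 gene model), chr15:92396560-92396809 (plus strand), chr3:66981772-66982021 (minus strand) and chr3:130180595-130180844 (plus strand, inside the longer Col25a1 gene model).
Rnf220: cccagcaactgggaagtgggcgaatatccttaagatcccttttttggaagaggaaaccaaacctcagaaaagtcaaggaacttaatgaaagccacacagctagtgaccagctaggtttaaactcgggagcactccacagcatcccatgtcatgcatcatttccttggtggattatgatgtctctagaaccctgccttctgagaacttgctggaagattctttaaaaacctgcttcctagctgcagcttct
Pdzrn4: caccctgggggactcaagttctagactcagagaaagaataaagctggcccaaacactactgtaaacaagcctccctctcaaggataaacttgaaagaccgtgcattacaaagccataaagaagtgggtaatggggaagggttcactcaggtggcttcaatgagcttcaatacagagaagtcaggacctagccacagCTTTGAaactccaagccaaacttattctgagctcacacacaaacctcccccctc
Shox2: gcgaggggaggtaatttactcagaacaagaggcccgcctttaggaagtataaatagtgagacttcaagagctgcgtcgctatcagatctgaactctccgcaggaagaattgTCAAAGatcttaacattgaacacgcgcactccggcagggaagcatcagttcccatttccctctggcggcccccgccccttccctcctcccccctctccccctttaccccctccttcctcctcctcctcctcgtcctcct
Col25a1: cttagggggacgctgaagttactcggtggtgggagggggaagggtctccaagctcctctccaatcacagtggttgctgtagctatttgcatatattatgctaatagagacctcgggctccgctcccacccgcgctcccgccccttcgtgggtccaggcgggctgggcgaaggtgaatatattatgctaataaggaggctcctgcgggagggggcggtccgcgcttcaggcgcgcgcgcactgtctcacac
The core letters began 54 bases before the start in the window shown for Pdzrn4 and 139 bases before it in Shox2, and were not in the windows shown for Rnf220 and Col25a1. Pdzrn4 had a second window without an annotated exon, chr15:92596859-92597108, which did not hold them. They were in 13.8% of 32851 RefSeq promoter windows of this length, or in 15.8% of 27025 genes with a window. Of the 15 leading genes of the shallower nuclei described later, 12 had a window and 2 of these (16.7%), Pde4b and Pdzrn4, held the core letters. The share was close to that over all genes, and a match is a description of letters, not of binding.

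Each condition of the rule except the mitochondrial limit removed many nuclei. Of the 7531 nuclei, none was lost to the mitochondrial limit, 1583 had at least 3 Tcf7l2 UMIs, 721 of these had 2 or more UMIs of the other 4 genes, and 399 of these had at most 1 Gad UMI. The gated nuclei held 3796502 UMIs, with a median of 6481 per nucleus (quartiles 4441.5 and 11310, range 1971 to 87528) and a median of 2928 genes. The other 7132 nuclei held 53824462 UMIs, with a median of 4894. The share of nuclei that met the rule differed with depth. It was 2.69% of nuclei with 1500 to under 4000 UMIs, 10.5% of those with 15000 to under 25000 and 6.87% of those with 25000 or more. The rule asks for absolute numbers of UMIs at every depth, in the Gad limit as in the genes required. Nuclei of at least 10000 UMIs made up 29.8% of the gated and 17.9% of the other nuclei.

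The genes of the rule are given as a description, since they chose the nuclei. Tcf7l2 had a median of 12 UMIs per gated nucleus (quartiles 7 and 20, range 3 to 72). A Slc17a6 UMI was found in 355 of 399 gated nuclei (89.0%, 85.5 to 91.9), with a median of 2 UMIs and up to 16. Lhx9 was found in 217 (54.4%, 49.4 to 59.4), Shox2 in 83 (20.8%, 16.9 to 25.1) and Gbx2 in 49 (12.3%, 9.23 to 15.9). In 138 nuclei (34.6%, 29.9 to 39.5), Slc17a6 was the sole gene of the 4 that was found. In 148 cortical excitatory nuclei of the same library, with a median of 6381 UMIs, 72 (48.6%) had a Slc17a6 UMI, 36 (24.3%) a Lhx9 UMI, 2 (1.35%) a Shox2 UMI and 0 a Gbx2 UMI. A count of 0 allows a share of nuclei with a Gbx2 UMI of up to 2.03%, by counting error alone, and says nothing of the share that expresses the gene. Of the other 7132 nuclei, 1.28% had a Gbx2 and 1.43% a Shox2 UMI, which the rule lowers in part, since it took nuclei for these genes.

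Nuclei just inside and just outside the limit on the 4 genes had nearly the same levels of Rnf220 and Ntng1, and those at the other limits differed more. The 27 nuclei with exactly 3 Tcf7l2 UMIs had 564 UMIs of Rnf220 per 1000000 UMIs of the group (CPM, with UMIs added up over its nuclei), and the 33 nuclei with 2 Tcf7l2 UMIs that met the other conditions had 384. The 124 gated nuclei with exactly 2 UMIs of the 4 genes had 2560 CPM of Rnf220 and 1898 of Ntng1. The 158 nuclei with 1 such UMI, left out by the rule, had 2516 and 1906. The 354 nuclei with none of the 4 genes had 1129 and 770. On the side of the Gad limit, Rnf220 stood at 1838 CPM in the 54 gated nuclei with 1 Gad UMI, at 1353 in the 38 nuclei with 2, and at 756 in the 284 nuclei with 3 or more. Their median depths were 10047.5, 13353.5 and 23663.5 UMIs.

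Rnf220, Ntng1 and Tcf7l2 had higher levels in the shallower than in the deeper gated nuclei, and Top2a, Mki67, Col3a1 and Flt1 had lower ones. In 75 gated nuclei with 1500 to under 4000 UMIs, Rnf220 had 3934 CPM, Ntng1 2724 and Tcf7l2 3186. In the 50 nuclei with 10000 to under 15000 UMIs they had 1950, 1476 and 1421, and in the 20 nuclei with 25000 or more 556, 410 and 440. The fall of Tcf7l2 is partly fixed by the rule, which asks for 3 UMIs at any depth. Lhx2 varied least of these genes, from 177 CPM in the shallowest to 142 in the deepest band. In the opposite direction, Top2a, a topoisomerase of dividing cells, had 8.41 CPM in the shallowest band and 294 in the deepest, and Mki67, a marker of dividing cells, 0 and 140. Col3a1, a collagen of connective tissue, had 29.4 and 400 CPM, with values of 10.8 and 14.1 in the bands between 4000 and 10000 UMIs. Flt1, a receptor of blood vessel cells, had 8.41 and 92.3.

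**Figure D1:**
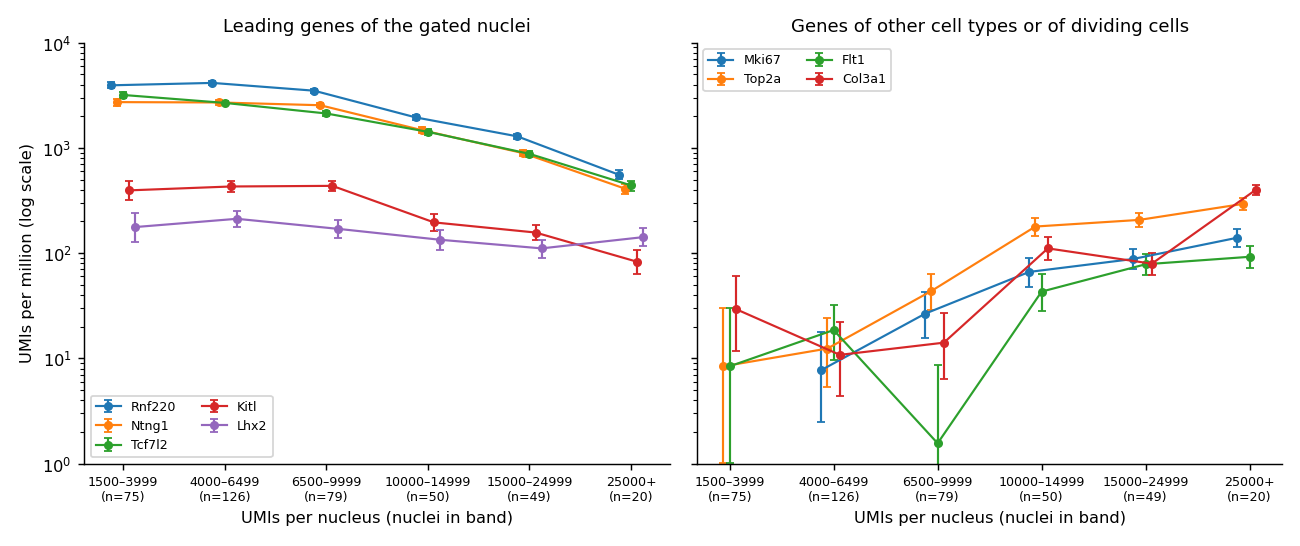
Level in CPM (log axis) of 9 genes in gated nuclei grouped by UMIs per nucleus; points are sums over the nuclei of a band and bars are 95% exact Poisson intervals. Rnf220 falls from 3934 to 556 CPM and Top2a rises from 8.41 to 294; Mki67 was at 0 in the first band and is not drawn there.

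Most gated nuclei under 10000 UMIs fell into 1 cluster led by thalamic markers, and most of the deeper ones fell elsewhere. When all nuclei of the library were clustered, that cluster held 563 nuclei, was led by Gm12828, Rnf220, Tcf7l2 and Ntng1, and took in 203 of the 280 gated nuclei under 10000 UMIs (72.5%, 66.9 to 77.6). It held 23 of the 119 gated nuclei of 10000 UMIs or more (19.3%, 12.7 to 27.6). In all, 226 gated nuclei (56.6%, 51.6 to 61.6) were in this Rnf220 cluster and the rest were spread over 15 others, with 36 in a cluster led by Creb5 and Fgfr3. Since these clusters were made from all genes, Tcf7l2 included, the share is a description. For this reason the gated nuclei are named by the rule, and values are given for all 399 and for the 280 under 10000 UMIs, a limit chosen after these values were seen.

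Markers of other cell types differed between the depths. Under 10000 UMIs, 8.57% of the gated nuclei had 3 or more UMIs of 8 cortical excitatory markers and 1.07% had as many of 8 endothelial markers. At 10000 UMIs or more the shares were 63.9% and 23.5%, beside 64.8% and 16.8% of the other nuclei of that depth. A fixed number of UMIs is reached more often at depth. The summed levels do not depend on depth in that way. Fibroblast markers summed to 48.5 CPM in the shallower and 456 in the deeper gated nuclei, against 190 and 164 in the other nuclei below and above the same limit. Endothelial markers summed to 67.6 and 505 CPM, against 159 and 315. Hypothalamic markers summed to 50.5 and 220 CPM, against 183 and 172 in the other nuclei. Cortical excitatory markers summed to 128 and 397, against 371 and 406. Markers of rostral thalamus and prethalamus summed to 90.5 and 252 CPM, well under the 669 and 664 of the other nuclei, as did GABAergic markers at 108 and 149 against 587 and 562, part of which the Gad limit fixes. Radial glia and cell cycle markers summed to 466 CPM in the shallower gated nuclei, of which the glutamate transporter Slc1a3 made up 367. They summed to 833 in the deeper ones, and to 423 and 573 in the other nuclei. Habenular markers stayed at 44.6 and 38.3 CPM, against 45.8 and 37.8, and those of pretectum and midbrain at 16.4 and 26.4, against 37.0 and 26.8. Microglial markers summed to 216 and 180 CPM, against 197 and 163, and choroid plexus markers without Ttr to 114 and 171, against 142 and 195. Erythroid markers, which nuclei of neurons should lack, summed to 336 and 1433, against 459 and 693. The part of these markers in the results on all 399 nuclei was not tested.

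**Figure D2:**
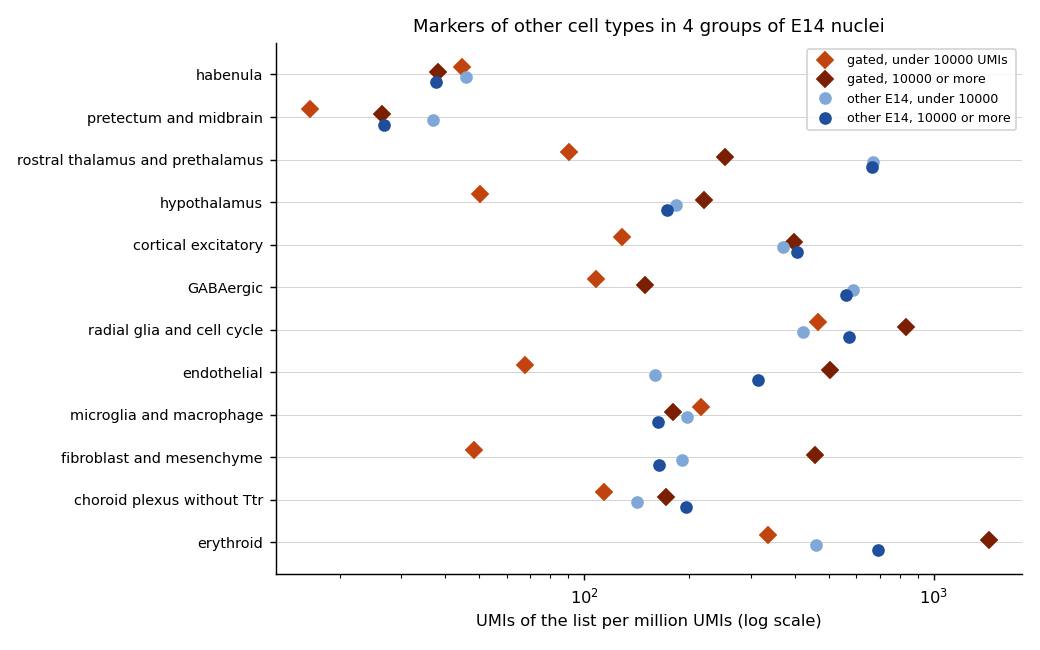
CPM (log axis) summed over 12 marker lists in gated and other E14 nuclei below and above 10000 UMIs. The fibroblast sum is 48.5 CPM in gated nuclei under 10000 UMIs and 456 in deeper ones, while the sums of the rostral thalamus and prethalamus list lie below those of other nuclei at both depths.

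Of nuclei marked by doublet scores as the likeliest to hold RNA of 2 nuclei, 37 were gated. They made up 9.27% of the gated and 8.09% of the other nuclei, with 11 of them under and 26 at or above 10000 UMIs.

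The rule also missed nuclei of the Rnf220 cluster. Of its 563 nuclei, 337 did not pass. In 206 of them (61.1%) the reason was fewer than 2 UMIs of the 4 genes, in 58 it was 2 or more Gad UMIs, in 38 a depth under 1500 UMIs and in 35 fewer than 3 Tcf7l2 UMIs. The 206 had 5143 CPM of Rnf220, 3765 of Ntng1 and 2462 of Tcf7l2, beside 4740, 3267 and 2601 in the members of the cluster that passed. Their Slc17a6 level, 72.5 CPM against 352, is partly fixed by the condition they missed, which counts Slc17a6. Their median depth was 4081.5 UMIs against 5326.5.

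Relative to the other 7132 nuclei, few genes passed 2-fold. Among genes with at least 200 UMIs in gated nuclei, the highest ratios over all depths were those of H19, at 6.16, and Rnf220, at 5.90, and under 10000 UMIs those of Rnf220, Kitl and Ntng1. Of 10669 genes with a mean of at least 10 CPM over the 2 groups, 70 (0.656%) were at least 2-fold higher and 81 (0.759%) at least 2-fold lower in gated nuclei, with a median ratio of 1. With both groups limited to nuclei under 10000 UMIs, 196 of 10382 (1.89%) were higher and 519 (5.00%) lower, with a median of 0.932. Genes correlated with those of the rule had to follow it to some degree, so these values describe the nuclei and do not test them.

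Rnf220 had 8643 UMIs in gated nuclei, or 2277 CPM (2229 to 2325) against 386 in the others, a ratio of 5.90 (5.76 to 6.05), and a ratio of 10.3 under 10000 UMIs (3841 against 371 CPM). It was found in 82.7% of gated nuclei (78.6 to 86.3), 34.8% of the others and 32.4% of the cortical excitatory nuclei. With each nucleus thinned to 1500 UMIs the first 2 shares were 70.9% and 17.9%. Ntng1, which encodes netrin-G1, a membrane-bound axonal protein, had 1593 CPM against 486 (ratio 3.28, 3.19 to 3.37), and 2640 against 490 in shallower nuclei (5.38). Kitl, which encodes the ligand of the Kit receptor, had 257 CPM against 69.9 (3.68, 3.42 to 3.95), and 427 against 65.3 (6.54). Sorcs2, a sorting receptor that binds pro-neurotrophins, had 338 CPM against 99.4 (3.41), and 522 against 105 (4.98). Each of these 4 genes had a larger ratio among the shallower nuclei.

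Among the other leading genes, Shisa9, an auxiliary protein of AMPA receptors, had a ratio of 2.99 over all depths and 5.15 under 10000 UMIs. Syt13, of the synaptotagmin family, stood at 3.20 and 4.55, Kcnj6, an inwardly rectifying potassium channel, at 2.58 and 4.08, Bmpr1b, a receptor of bone morphogenetic proteins, at 2.75 and 4.49, and Pde4b, which breaks down cyclic AMP, at 2.44 and 3.95. Under 10000 UMIs, Glra2, a glycine receptor subunit, joined them at 3.84, Kcnc2, a fast potassium channel, at 3.40 and Pdzrn4 at 3.75. H19 (6.16), Ptgds (2.95) and Igf2 (2.32) were also among the 15 leading genes over all depths but were lower in gated nuclei under 10000 UMIs, at ratios of 0.463, 0.231 and 0.456. The deepest 10% of the gated nuclei held 87.1% of the H19 UMIs. H19 and Igf2 are growth-related imprinted genes and Ptgds a prostaglandin synthase of the meninges, and H19 and Ptgds led a cluster with only 14 gated nuclei.

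The lowest ratios over all depths included genes of inhibitory neurons, a class that the Gad limit of the rule kept out. Lhx6 and Lhx8, homeodomain factors of ventral forebrain neurons, had ratios of 0.0582 and 0.0860, Dlx6os1, a transcript antisense to a factor of GABAergic neurons, had 41.4 CPM against 372 (0.111), and Dlx1 had 15.0 against 66.9 (0.225). Pmch, a hypothalamic peptide, stood at 0.179. Nrxn3, a presynaptic adhesion protein, was present in most nuclei of both groups and had 1331 CPM against 7406 (0.180, 0.175 to 0.185). Under 10000 UMIs it had 1508 against 7514, and with no Gad UMI allowed in gated nuclei its ratio was 0.139. Relative to the cortical excitatory nuclei alone, Nrxn3 was over 2-fold higher in gated nuclei, over all depths and under 10000 UMIs.

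**Figure D3:**
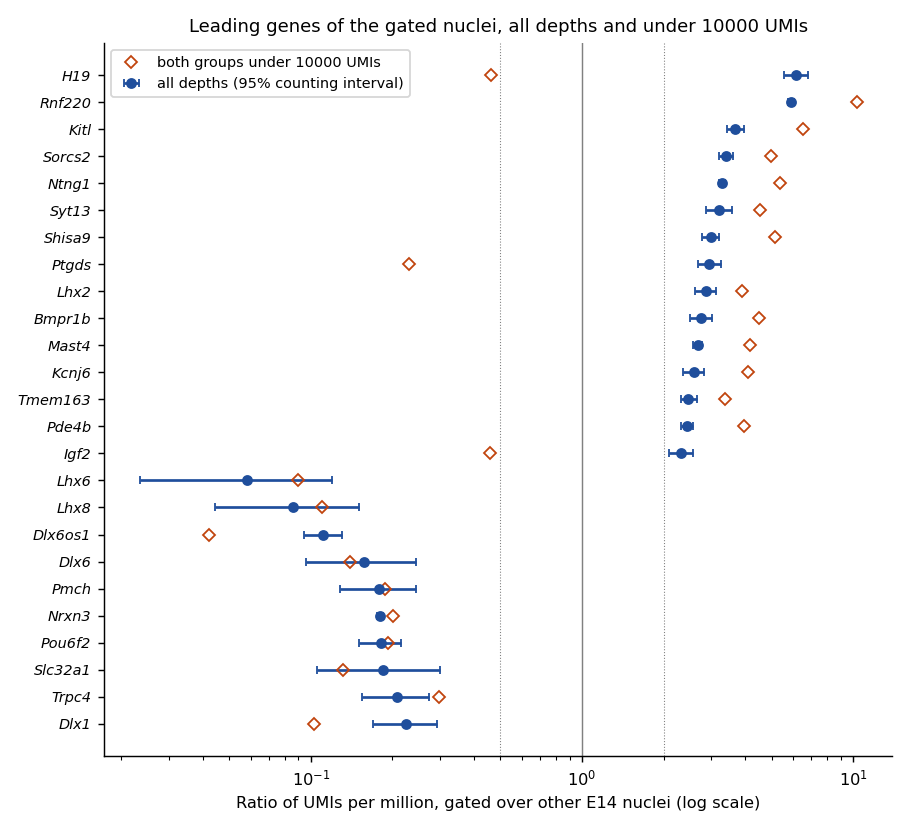
Ratio of CPM (log axis) in gated over other E14 nuclei for the 15 highest and 10 lowest genes, leaving out genes of the rule; filled points are nuclei of all depths with 95% intervals, open points nuclei under 10000 UMIs, and dotted lines mark 2-fold. Rnf220 moves from 5.90 to 10.3, whereas H19, Ptgds and Igf2 cross from above to below 1.

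Among transcription factors known from the diencephalon, 1 of 22 read genes passed 2-fold higher over all depths, Lhx2, and 1 lower, Esrrg, beside 0.656% and 0.759% of all genes, and the median ratio was 0.920. Lhx2, a LIM homeodomain factor, had 152 CPM (140 to 165) against 53.2, a ratio of 2.86 (2.61 to 3.13), and 3.90 in shallower nuclei. It was not limited to the thalamus, since a Lhx2 UMI was in 61.5% of cortical excitatory and 54.6% of gated nuclei. Foxp2, a forkhead factor, had 561 CPM against 300 (1.87), and 683 against 291 (2.35) under 10000 UMIs. Rora, a nuclear receptor of thalamic relay neurons, had 949 against 560 (1.69, and 1.81), and Lef1, a partner of Tcf7l2 in Wnt signalling, 141 against 75.3 (1.87, and 1.70). Meis2, a homeodomain factor, had 920 against 1182 CPM over all depths (0.778) and 542 against 1111 (0.488) in shallower nuclei, where Meis1, Mef2c, Etv1 and Esrrg were also over 2-fold lower, 5 of 21 genes in all beside 5.00% of all genes, with a median of 0.746. Irx1 and Irx3, factors of the caudal diencephalon, had 0 UMIs in gated nuclei, and Pou4f1, a factor of habenular neurons, and Olig3, a factor of thalamic progenitors, had 0.790 and 0.527 CPM, too few to compare.

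In the Wnt pathway, in which Tcf7l2 acts, 0 of 15 read genes passed 2-fold over all depths, with a median ratio of 1.12. Under 10000 UMIs, Wnt3, a secreted ligand, was higher at 20.3 CPM against 3.56 (5.72, 3.68 to 8.65), from a small number of UMIs (46 over all depths), while Tcf7l1, Wnt5a and Lrp5 were over 2-fold lower. These 4 were of 13 genes read, whose median was 0.957, beside 1.89% of all genes higher and 5.00% lower at that depth.

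Of 28 axon guidance receptors 1 was higher and 2 were lower over all depths, beside 0.656% and 0.759% of all genes, with a median ratio of 0.875. Epha8, an Eph receptor, was higher at 29.5 CPM against 7.95 (3.71, 2.99 to 4.58). Erbb4, a neuregulin receptor, was lower at 828 against 1985 (0.417), as was Nrp1, a semaphorin receptor, at 163 against 348 (0.467, and 0.244 in shallower nuclei). Under 10000 UMIs, Epha3, a further Eph receptor, also passed 2-fold at 1070 against 415 CPM (2.58), and 6 of 27 were lower, Nrp1 and Nrp2 among them, beside 5.00% of all genes. The Slit receptor Robo2 had 1668 against 1154 CPM (1.45), Robo1 1428 against 1778 (0.803) and the netrin receptor Dcc 2871 against 3444 (0.833). Among 16 ligands read, Ntng1 and its relative Ntng2 were the 2 that passed 2-fold higher and none passed lower, with a median of 0.879. Under 10000 UMIs both stayed past 2-fold, and Slit2, Slit3, Ntn1, Efnb2 and Sema3c were over 2-fold lower of 17 read. Relative to the cortical excitatory nuclei alone, Ntng2 and Epha3 were over 2-fold lower in gated nuclei, over all depths and under 10000 UMIs.

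Of receptor and channel genes, few passed 2-fold over all depths, where 0.656% of all genes were higher and 0.759% lower, and under 10000 UMIs the shares of all genes were 1.89% and 5.00%. Over all depths, Grm8, a presynaptic metabotropic glutamate receptor, had 568 CPM against 280 (2.03, 1.93 to 2.12) and was the 1 of 21 glutamate receptor genes past 2-fold higher, with Gria3 the 1 lower and a median of 0.981. Under 10000 UMIs, Grm8 had 940 against 293 CPM (3.21), Grik1, a kainate receptor subunit, 741 against 316 (2.35), and Grm5 and Grin2d were also over 2-fold higher, while 3 were lower, Gria1 and Gria3 among them. Of 11 GABA-A receptor genes, 0 were higher and 1 lower over all depths, with a median of 0.938. No voltage-gated channel gene of 20 passed 2-fold over all depths (median 1.05). Under 10000 UMIs Kcnc2 (520 against 153 CPM, 3.40) and Scn2a, a sodium channel (314 against 146, 2.15), passed of 21 with a median of 1.25. Of 8 transmitter and peptide genes 1 was higher over all depths and 1, Slc32a1, lower (median 0.906). The higher one, Cbln2, a secreted synapse organiser, had 32.4 CPM against 15.4 (2.10). Slc18a2, the vesicular monoamine transporter, had 150 against 51.5 (2.90) under 10000 UMIs. Of 7 teneurins and latrophilins 0 passed over all depths (median 1.14), and Tenm2, a teneurin, passed in shallower nuclei at 10209 against 4326 CPM (2.36). Of 19 cadherins and protocadherins 0 were higher and 3 lower (median 0.799), and of 16 genes of neuronal maturation Nrxn3 alone passed, lower (median 1.04).

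The 148 cortical excitatory nuclei, chosen by Neurod6 together with further cortical markers, are the other glutamatergic class compared here and held 1286778 UMIs. Of 10465 genes, 949 (9.07%) were at least 2-fold higher and 348 (3.33%) at least 2-fold lower in gated nuclei, and with both groups under 10000 UMIs 1324 (13.1%) and 932 (9.25%) of 10073. Rnf220 led with 2277 CPM against 71.5 (31.8, 25.9 to 39.5). Among neuronal genes Syt13 followed at 102 against 4.66 CPM, from 6 cortical UMIs (21.8, 9.93 to 59.8). Ntng1 had 1593 against 108 CPM (14.7, 12.5 to 17.6), and the intervals of these 2 ratios overlapped. In shallower nuclei Cntn4, a contactin of axons, had 1558 CPM against 15.6 (9 UMIs), a ratio of 100 (52.6 to 219). All 7 read endothelial and all 5 read fibroblast markers were also over 2-fold higher in gated nuclei of all depths. Under 10000 UMIs only 1 endothelial marker of 3 read, Mecom, was higher and 1, Cdh5, was lower.

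Of 21 glutamate receptor genes 12 were over 2-fold higher and 1 lower (median ratio 2.09), and of 10 GABA-A receptor genes 5 were higher and 1 lower (2.03), beside 9.07% and 3.33% of all genes. Grm8 had 568 CPM against 49.7 (11.4) and Grik1 458 against 59.8 (7.66). Under 10000 UMIs 15 of 21 glutamate receptor and 6 of 8 GABA-A receptor genes were higher, beside 13.1% of all genes. Of 27 axon guidance receptors 5 were higher, among them the netrin receptor Unc5c at 679 against 81.6 CPM (8.32, 6.84 to 10.2), and 8 were lower. The lower ones included Plxna2 at 235 against 1058 (0.222), Nrp1 at 163 against 715 (0.227), Unc5d at 701 against 2431 (0.289), Epha5 at 1049 against 3030 (0.346) and Dcc at 2871 against 6931 (0.414). Epha3 was also among the lower receptors. Of 17 ligands 5 were higher, Ntng1 among them, and 5 lower. The lower ligands included Ntng2, Slit3 at 108 against 826 CPM (0.130) and Sema3c at 20.0 against 175 (0.114). Of 22 transcription factors 8 were higher, with Rora at 949 against 173 CPM (5.48), and 2 lower, including Bcl11a, a zinc finger factor, at 513 against 1266 (0.405).

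Within the gated nuclei, Lhx9 was found in 54.4% and Gbx2 in 12.3%, both genes of the rule. Both were found in 31 nuclei (7.77%, 5.34 to 10.8), Gbx2 alone in 18 (4.51%, 2.70 to 7.04), Lhx9 alone in 186 (46.6%, 41.6 to 51.6) and neither in 164 (41.1%, 36.2 to 46.1). With each nucleus thinned to 1500 UMIs the share with Gbx2 was 2.76% and with Lhx9 21.8%, and 2 of the 11 nuclei with Gbx2 also had Lhx9. Thinned to 3000 UMIs, 8 of 25 did, so that these classes are ranges of sparse counts and not cell types. Under 10000 UMIs, Rnf220 had 5566 CPM in nuclei with Gbx2 alone, 5228 in those with both, 3723 with Lhx9 alone and 3471 with neither. Ntng1 was also highest in the classes with Gbx2, at 3766, 3372, 2016 and 3023 CPM in the same order. Col25a1, a membrane collagen, had 0 UMIs in 14 nuclei with Gbx2 alone against 583 CPM in 127 with Lhx9 alone. A Col25a1 UMI was in 29.1% of those 127 nuclei, so its absence from 14 nuclei is weak evidence of a difference. The gene was picked for its ratio under a minimum of UMIs that was passed mainly through the larger Lhx9 class. Genes higher with Gbx2 alone could hardly be picked in this way, so no trait of the Gbx2 nuclei is drawn from it. Over all depths Col25a1 had 1 UMI in the 18 nuclei with Gbx2 alone and 620 in the 186 with Lhx9 alone. Ebf1, a factor of young neurons, had 1098 CPM in nuclei with both genes and 388 in those with neither. Under 10000 UMIs a Gbx2 UMI was in 16.3% of gated nuclei in the Rnf220 cluster and 2.6% of those outside it. Rnf220 had 5027 CPM in and 1007 outside that cluster, and Ntng1 3382 and 869. The part of cluster membership in the class differences was not tested.

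Nuclei with a Shox2 UMI had a set of transcripts that those without it lacked or had less of. Under 10000 UMIs 60 gated nuclei had a Shox2 UMI and 220 did not, a division made after values were seen. Of 10030 genes, 461 (4.60%) were at least 2-fold higher and 653 (6.51%) at least 2-fold lower in nuclei with Shox2. Col25a1 had 1072 CPM (965 to 1187) against 89.7 (73.4 to 109), a ratio of 12.0 (9.60 to 15.0), and was found in 45.0% of nuclei with and 11.8% without Shox2. Ntng2 had 207 CPM against 34.7 (5.96, 4.0 to 8.98), and Rmst, a long noncoding RNA of neural cells, 1818 against 613 (2.97). Mef2c, an activity-regulated transcription factor, had 463 CPM against 117 (3.97), Rorb, a nuclear receptor, 309 against 99.0 (3.12), and Grin3a, an NMDA receptor subunit, 315 against 108 (2.90).

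In the other direction, nuclei with Shox2 had lower levels of Ntng1, Foxp2, Epha3, Kitl and Slc1a3. Ntng1 had 1381 CPM against 3006, so that the netrin-G genes ran in opposite directions. Foxp2 had 318 against 790, Epha3 472 against 1243 and Kitl 262 against 475. Slc1a3, the glial and progenitor glutamate transporter, had 90.3 against 447 (0.202, 0.136 to 0.290). Rnf220, at 3036 against 4075 CPM, and Rora, at 874 against 1077, differed less. Tcf7l2, of which the rule asked at least 3 UMIs in every nucleus, was alike, at 2468 against 2542.

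Among nuclei of the Rnf220 cluster alone, 48 with and 155 without Shox2, the 10 genes given next kept their direction. Rmst was not examined within this cluster. There 667 of 9764 genes (6.83%) were at least 2-fold higher and 733 (7.51%) lower. Col25a1 had 624 CPM against 29.8, Ntng2 200 against 13.7, Rorb 260 against 95.6, Mef2c 234 against 99.3 and Grin3a, which no longer passed 2-fold, 193 against 96.8. Ntng1 had 1696 against 3945, Foxp2 375 against 986, Epha3 586 against 1029, Kitl 330 against 602 and Slc1a3 115 against 544. The level of Col25a1 was lower in this cluster, at 179 CPM, than in the 77 nuclei outside it, at 627 CPM, and Meis2 had 1632 CPM outside and 85.6 within.

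**Figure D4:**
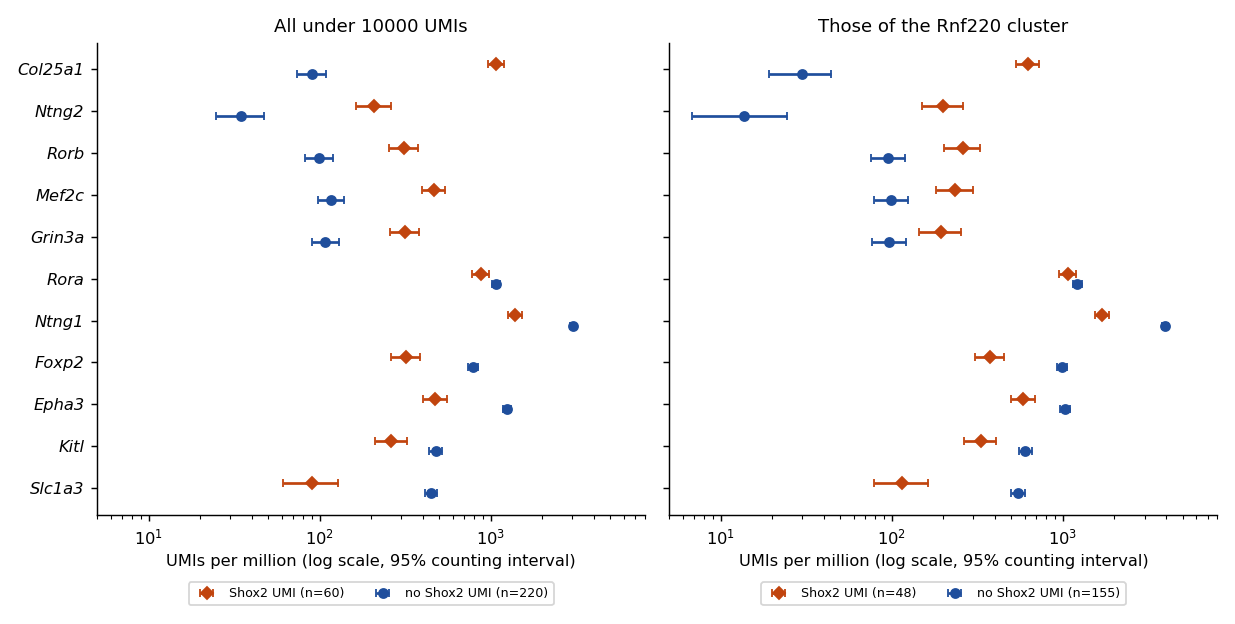
CPM (log axis, 95% exact Poisson intervals) in gated nuclei under 10000 UMIs with and without a Shox2 UMI, for all of them (left) and for those of the Rnf220 cluster (right). Col25a1, Ntng2, Rorb, Mef2c and Grin3a lie to the right with Shox2 in both panels, whereas Ntng1, Foxp2, Epha3, Kitl and Slc1a3 lie to the left.

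In the adult hippocampus library, 68 of 1661 barcodes passed the same rule and held 1397280 UMIs with a median of 18473.5. Age, library, section, animal and sex cannot be told apart in this comparison. Xist, expressed from the inactive X chromosome of female cells, had 2023 CPM in E14 and 0 UMIs in adult gated nuclei. The genes of the rule, set beside each other, had 1541 CPM at E14 and 993 in the adult for Tcf7l2, 285 and 338 for Slc17a6, 119 and 44.4 for Lhx9, and 36.9 and 93.8 for Shox2. These levels are partly fixed by the rule, which asked for the same numbers of UMIs at unlike depths (medians of 6481 and 18473.5 UMIs). Rnf220 had 2277 and 1163 CPM, and 3841 at E14 under 10000 UMIs. Of 10610 genes, 2507 (23.6%) were at least 2-fold higher and 1547 (14.6%) at least 2-fold lower at E14, with a median of 1.16. With E14 nuclei under 10000 UMIs, these were 2032 (19.8%) and 1670 (16.3%) of 10267, with a median of 1.07.

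Dcc and Robo2 were among the genes with higher levels at E14, and Kcnip4, Gabra4 and Grin2a among those with higher levels in the adult. Of 27 axon guidance receptors 15 were over 2-fold higher at E14 and 3 lower (median ratio 2.91), beside 23.6% and 14.6% of all genes, and in shallower E14 nuclei 15 and 2 of 26. Dcc had 2871 CPM against 141 (20.4, 17.7 to 23.6), Robo2 1668 against 134 (12.5, 10.8 to 14.5) and Erbb4 828 against 8.59 (12 UMIs). Robo1 went the other way at 1428 against 3518 (0.406, and 0.475 with shallower E14 nuclei), so that the 2 Slit receptors were on opposite sides. Of 16 ligands 9 were higher at E14 and 2 lower (median 3.90). Slit2 had 334 against 1.43 CPM (2 UMIs in the adult), with 152 in E14 nuclei under 10000 UMIs, and Slit3 108 against 688 (0.157). Dcx, a microtubule protein of migrating neurons, had 244 against 26.5 CPM (9.20), and Sox4 and Sox11, factors of young neurons, 160 against 4.29 (37.2) and 341 against 60.1 (5.67). Meis2 had 920 against 1.43 CPM, from 2 adult UMIs, and 542 in E14 nuclei under 10000 UMIs. Among the latter it had 85.6 CPM in the Rnf220 cluster and 1632 outside it, so its E14 level came mostly from nuclei outside that cluster. Of 20 diencephalic transcription factors 9 were higher at E14 and 4 lower, with Rora at 949 against 3774 CPM (0.251) and Lef1 at 141 against 755 (0.187) on the lower side.

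Of 20 voltage-gated channel genes 5 were higher at E14 and 12 lower (median 0.363), and of 12 GABA-A receptor genes 0 and 7 (0.438), beside 23.6% of all genes higher and 14.6% lower. The share of channel genes that were higher was near that of all genes. Kcnip4, a potassium channel partner, had 625 against 19262 CPM (0.0324, 0.0311 to 0.0338), Kcnc2 306 against 2480 (0.123) and the sodium channel Scn1a 66.9 against 512 (0.131). Scn3a, a sodium channel of embryonic neurons, had 344 against 116 (2.97). Gabra4, a GABA-A receptor subunit, had 18.2 against 625 CPM (0.0291) and Gabrd, a further subunit, 0.263 against 125. Of 21 glutamate receptor genes 1, Grm8, was higher at E14 (568 against 30.8 CPM, 18.5) and 6 were lower, among them Grin2a at 49.0 against 1102 (0.0445) and Grin1 at 42.7 against 339 (0.126). Snap25, of the vesicle fusion machinery, had 151 against 923 CPM (0.164), Camk2a, a synaptic kinase, 89.6 against 510 (0.176), and Cck, a peptide, 0.790 against 276, from 3 UMIs at E14. Of 16 genes of neuronal maturation 5 were higher and 6 lower at E14. Limited to E14 nuclei under 10000 UMIs, channels were 4 higher and 11 lower of 20, glutamate receptors 3 and 5 of 21, and GABA-A receptors 0 and 6 of 12, beside 19.8% and 16.3% of all genes.

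**Figure D5:**
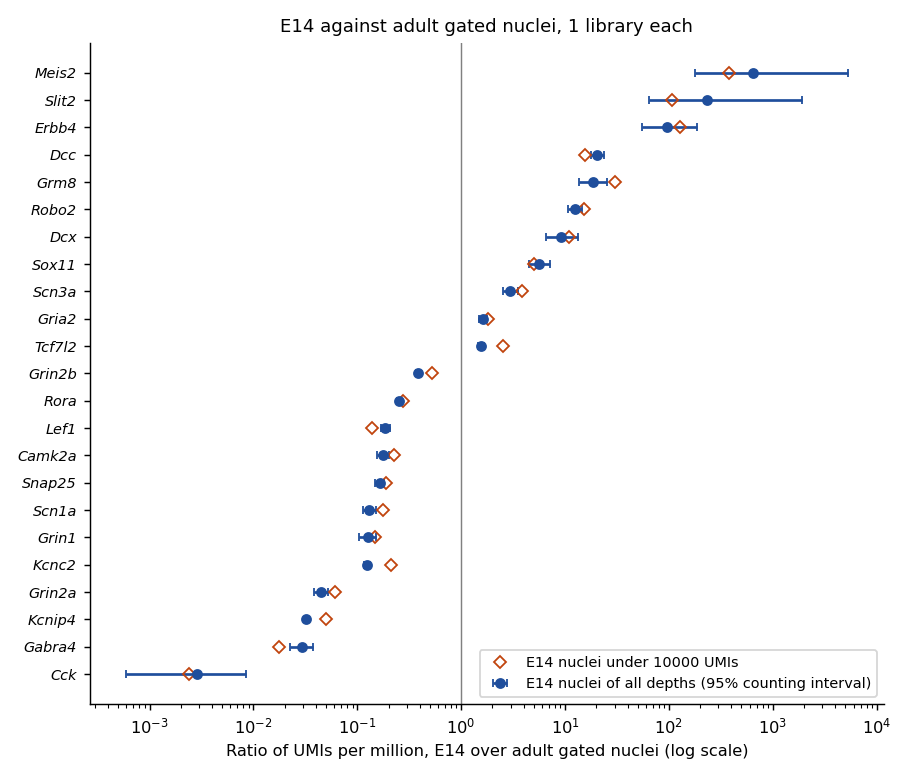
Ratio of CPM (log axis) in E14 over adult gated nuclei for 23 genes, of which Tcf7l2 belongs to the rule. Filled points use E14 nuclei of all depths with 95% intervals, open points those under 10000 UMIs. Dcc (20.4) and Robo2 (12.5) lie above 1 and Kcnip4 (0.0324) and Gabra4 (0.0291) below it, and open and filled points fall on the same side for every gene drawn.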

How the data were processed

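The authors aligned reads to mm10 with introns and deposited UMI counts per gene and barcode, without normalization. Per the file headers, the E14 counts were written by Cell Ranger 7.0.1 and those of the hippocampus by 6.1.2. The methods name CellBender for the embryo, while its header gives Cell Ranger counts. Both files hold 32285 genes. The libraries share 1 barcode sequence, and 0 gated nuclei carry it.

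The conditions of the rule were applied to the counts with Python 3.11.15, numpy 2.4.6, scipy 1.17.1 and pandas 2.3.3. Levels are UMIs summed over nuclei per 1000000. A count of 0 was set at 3 counts for a ratio. Ratios were read for genes with a mean of at least 10 CPM, and past 2-fold was the limit for counts. Clusters came from Seurat 5.3.0 in R 4.3.3 (barcodes of at least 500 UMIs, 2000 variable genes, 30 components, resolution 0.8). Scrublet in scanpy 1.11.5 marked 4 of 9036 nuclei by its automatic threshold, too few to be of use. The 653 highest scores, at 0.8% per 1000 nuclei, were marked instead and kept. Ratio functions were tested on simulated data. Gene positions are from GENCODE vM21.

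The gated nuclei, marker lists and gene lists were chosen with earlier results of these data known. Genes named are list members and, per comparison, the 15 highest and 10 lowest by ratio among genes of at least 200 UMIs on the higher side, or the 8 largest ratios between the Gbx2 and Lhx9 classes for genes of at least 100 UMIs, a limit passed mainly through the larger Lhx9 class. Genes from the 12 largest ratios each way of the Shox2 division, the 4 promoters and Xist were chosen after values were seen. Some genes that these rules cover are not reported here.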

Additional observations from a re-analysis of the deposited data

How the results depend on the processing

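With 1 library per tissue, counting error is the only error shown, and differences between animals or sections could not be measured. No paired analysis was possible because each tissue has 1 library. The share of gated nuclei, 5.30%, became 6.4% with a minimum of 3000 UMIs, 4.55% with at least 5 Tcf7l2 UMIs, 4.58% with no Gad UMI, 2.11% without Slc17a6 in the sum and 4.56% among nuclei under 10000 UMIs. The last alternative was chosen after the data were seen. Against other E14 nuclei, the 70 higher and 81 lower genes became 110 and 197 without Slc17a6, 141 and 199 with the mean over nuclei of CPM, 381 and 458 with a mean CPM of at least 1, 42 and 42 with at least 30, and 196 and 519 under 10000 UMIs. Against cortical nuclei, the 949 higher and 348 lower genes became 2671 and 1053 with at least 1 CPM and 430 and 224 with at least 30, and the lower genes numbered 584 with the mean over nuclei and 932 under 10000 UMIs. Against adult nuclei, the 2507 higher and 1547 lower genes became 4759 and 2781 with at least 1 CPM and 1323 and 938 with at least 30. These counts depend on the limit on low values by construction, since it sets how many genes are read, and the cause of the other moves was not tested. The share of gated nuclei with Gbx2, 12.3%, was 22.0% without Slc17a6 in the sum and 1.5% with 2 UMIs asked for, and that with Lhx9, 54.4%, was 92.5% and 29.3%. The rise of both shares without Slc17a6 is partly fixed by the rule, since 2 UMIs of Gbx2, Lhx9 and Shox2 were then required. Thinned to 3000 in place of 1500 UMIs, the shares were 6.67% against 2.76% and 33.1% against 21.8%. H19 and Ptgds fell from over 1 to ratios of 0.335 and 0.105 without Slc17a6, and to 0.463 and 0.231 under 10000 UMIs. The other 17 named ratios kept their direction under all 9 alternatives, with Rnf220 between 5.57 and 10.3 and Ntng1 between 2.94 and 5.38.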
